A study of Mus musculus with 2 samples.

Results

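The Hox genes are the homeobox genes of the HoxA, HoxB, HoxC and HoxD clusters. Each one encodes a transcription factor with a homeodomain, the part of the protein that binds DNA. Within a cluster the genes are numbered from 1 to 13 by paralog group, and genes of low number are used toward the head of the embryo while genes of high number are used toward the tail, so that the set a cell uses marks its position along the body axis. In mice the posterior genes of HoxA and HoxD act in the urogenital region, and mutations of Hoxa10, Hoxa13 and Hoxd13 disturb the male accessory glands. Members were every gene on the array whose symbol is a Hox letter and number and which has a probe set, a group of oligonucleotide probes for 1 transcript, that names it alone. There were 33 such genes among 18193 named genes, out of 39 Hox genes in the RefSeq gene table. The others are not analysed here as genes of their own. Among them, Hoxb8 and Hoxd4 had only probe sets shared with Hoxb7 and Hoxd3.

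The cells were urogenital sinus mesenchyme (UGM) cells, the stroma around the epithelium from which the prostate buds, taken from male C57BL/6 mice at day 16 and grown in culture. The first group received testosterone at 12 nM and estradiol-17 beta at 120 pM (T+E2), and the second group, called untreated, received neither hormone. Both were kept for 72 h in RPMI medium with 5% serum stripped of steroids by dextran-coated charcoal and with the antibiotic Plasmocin (5 µg/ml). Each group had 1 array. The sample titles give 24 h instead of 72 h, and the descriptions call the T+E2 cells nearly confluent and the untreated cells confluent, whereas the growth protocol gives 80% for both. The labels do not say how many animals were pooled or how long the cells had been in culture.

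With 1 array for each condition there was no replicate spread, so no difference below was tested and none can be set against the variation between cultures. The values are probe set intensities made with GCRMA, given here as deposited or as their log2. Values below a floor of 5 on the log2 scale, an intensity of 32, were treated as background, and a gene counted as measured if either array reached that floor. The median intensity over all 45101 probe sets was 6.12 on the T+E2 array and 7.60 on the untreated array, and 42.1% of probe sets reached the floor on the T+E2 array and 42.9% on the untreated array. The 18 hybridization spike probe sets differed between the arrays by -0.25 to 0.09 (log2), with an SD of 0.12. Intensities of different probe sets depend on their probes, so the levels of different genes are not ranked.

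The mesenchymal label matched its markers, since 10 of 11 mesenchymal markers were measured and only Thy1 was not. Of 11 epithelial markers 2 were measured, Cdh1 and Trp63, while the keratin genes Krt5, Krt8, Krt14, Krt18 and Krt19 and Epcam lay between 2.11 and 2.40 (log2). Of 6 endothelial markers 1 was measured (Tek), of 6 leukocyte markers 1 (Lyz2), of 4 nerve and Schwann cell markers with a probe set 1 (S100b), and of 6 skeletal muscle markers 0. The summed intensity of the epithelial markers was 583 on the T+E2 array and 338 on the untreated array. Within it, Cdh1 was at 190 with T+E2 and 41.4 in untreated cells, and Trp63 at 352 with T+E2 and 255 in untreated cells. The sum of the leukocyte markers was 396 on the T+E2 array and 1092 on the untreated array, of which Lyz2 alone made 369 with T+E2 and 1065 in untreated cells. The part of such cells in the Hox values was not tested.

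The UGM cells showed a short list of Hox transcripts. Of the 33 genes, 9 were measured, and all 9 reached the floor on both arrays: Hoxa3, Hoxa5, Hoxa7, Hoxa9, Hoxa10, Hoxa11, Hoxc13, Hoxd8 and Hoxd9. The other 24 were under the floor on both arrays, so no Hox gene crossed it between the arrays. From RNA of a whole culture, fewer cells that use a gene and less RNA per cell cannot be told apart. Among all named genes 56.4% were measured, against 27.3% of the Hox genes. Hoxa7 was at 6.15 on the T+E2 array and 5.33 on the untreated array, so its untreated value lay close to the floor. Values of the genes below the floor ran up to 3.98 (Hoxa2 on the T+E2 array, with 3.02 on the untreated array). A further probe set of Hoxa9 lay just under the floor at 4.70 on both arrays, and one of Hoxa10 was at 2.47 with T+E2 and 4.79 in untreated cells. Of the 24 genes below the floor, 21 stayed under a log2 of 3 on both arrays, where probe sets without signal collect under GCRMA.

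**Figure D1:**
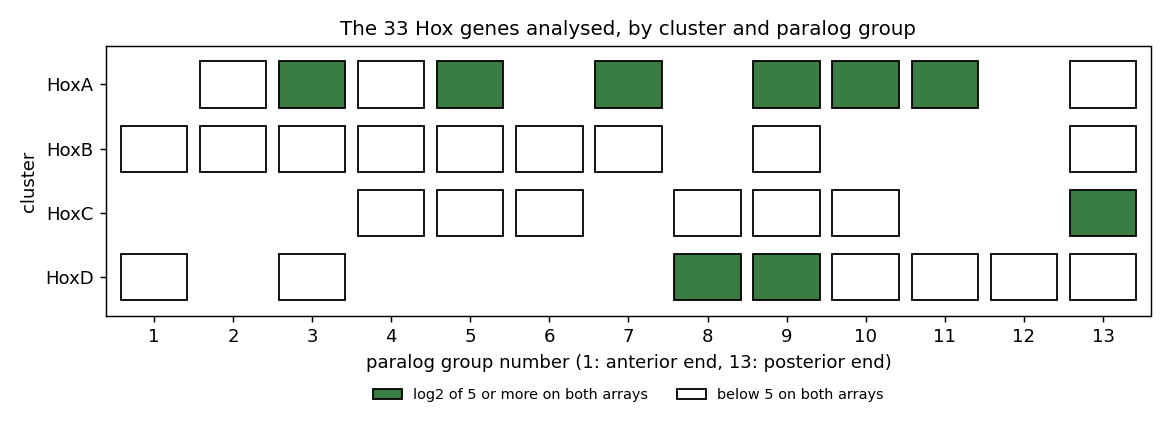
The 4 clusters (rows) against the paralog group number (columns), with filled boxes for genes at log2 of 5 or more on both arrays and open boxes for genes below 5 on both; only the 33 members are drawn. The 6 filled boxes of HoxA run over groups 3 to 11 with Hoxa4 open between them, the 2 of HoxD are neighbours, HoxC has 1 at its posterior end and HoxB has 0.

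The measured genes were unevenly spread over the clusters. HoxA, on chromosome 6, had 6 of 9 members measured, HoxD on chromosome 2 had 2 of 8, HoxC on chromosome 15 had 1 of 7, and HoxB on chromosome 11 had 0 of 9. All 9 HoxB genes lay between 2.02 and 2.40 (log2) on both arrays, and the probe set shared by Hoxb8 and Hoxb7 was at 2.08 on both. By paralog group, group 9 had 2 of 4 members measured, Hoxa9 and Hoxd9. Groups 3, 5, 7, 8, 10, 11 and 13 had 1 each, and groups 1, 2, 4, 6 and 12 had 0. Where a group had several members, the measured copy was the HoxA copy in groups 3, 5, 7, 10 and 11, the HoxD copy in group 8 and the HoxC copy in group 13.

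**Figure D2:**
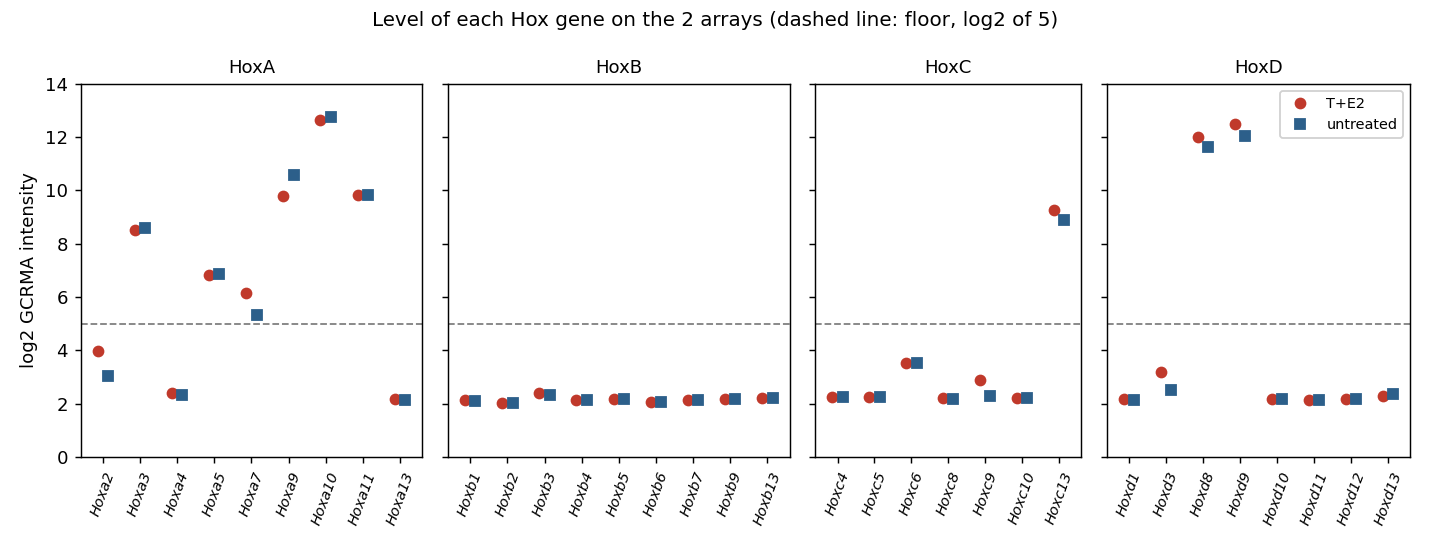
Log2 GCRMA intensity of each of the 33 Hox genes, in 4 panels by cluster, with circles for the T+E2 array and squares for the untreated array, and the floor of 5 as a dashed line. The 9 measured genes lie above the line on both arrays and the other 24 lie below it on both, with values up to 3.98 (Hoxa2, T+E2).

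In the HoxD cluster, adjacent genes lay on either side of the floor. Hoxd9 was at an intensity of 5778 on the T+E2 array and 4159 on the untreated array, whereas Hoxd10, the next gene toward the posterior end, was at 4.52 with T+E2 and 4.47 in untreated cells. Hoxd11, Hoxd12 and Hoxd13 were likewise at background, between 4.41 and 4.87 on the T+E2 array and between 4.38 and 5.16 on the untreated array. On the other side of the pair, Hoxd3 was at 9.10 with T+E2 and 5.66 in untreated cells, both far below the floor intensity of 32, and Hoxd1 was at 4.46 with T+E2 and 4.42 in untreated cells. Hoxd4 had no probe set of its own, and those it shares with Hoxd3 were at 4.39 with T+E2 and at 4.36 and 4.38 in untreated cells. Among the analysed genes, Hoxd8 and Hoxd9 thus formed an island with the genes on both sides below the floor. Between them the RefSeq table places the long non-coding RNA Gm38462, which was also measured, at 216 with T+E2 and 231 in untreated cells. The sequences before the start sites of the genes at this border are shown because measured and unmeasured genes meet there, and that of Hoxa9 because its difference was the most negative among members. Each is the 250 bases before the RefSeq start site (GRCm38.p6), 5′ to 3′ on the gene's own strand, with matches on either strand to AGAACA, the core motif of the androgen receptor, and to GGTCA, that of the estrogen receptor, in capitals. The 2 motifs do not overlap in these stretches.
Hoxd10 (chr2:74691641-74691890, + strand): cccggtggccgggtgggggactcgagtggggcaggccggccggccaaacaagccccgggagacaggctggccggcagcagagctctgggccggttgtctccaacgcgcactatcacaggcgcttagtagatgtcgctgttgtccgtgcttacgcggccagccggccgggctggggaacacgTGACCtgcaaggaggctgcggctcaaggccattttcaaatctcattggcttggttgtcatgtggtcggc
Hoxd9 (chr2:74697513-74697762, + strand): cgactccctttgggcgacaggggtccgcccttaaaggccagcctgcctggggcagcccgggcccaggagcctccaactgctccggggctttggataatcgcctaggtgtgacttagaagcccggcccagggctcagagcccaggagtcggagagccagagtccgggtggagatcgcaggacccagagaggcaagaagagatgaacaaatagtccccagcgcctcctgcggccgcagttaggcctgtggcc
Hoxd8 (chr2:74704365-74704614, + strand): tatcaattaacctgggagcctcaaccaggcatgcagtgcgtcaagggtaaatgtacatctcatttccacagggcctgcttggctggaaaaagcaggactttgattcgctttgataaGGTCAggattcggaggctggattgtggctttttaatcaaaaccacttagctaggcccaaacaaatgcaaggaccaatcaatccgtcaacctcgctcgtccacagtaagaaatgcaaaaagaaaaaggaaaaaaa
Hoxa9 (chr6:52227371-52227620, - strand): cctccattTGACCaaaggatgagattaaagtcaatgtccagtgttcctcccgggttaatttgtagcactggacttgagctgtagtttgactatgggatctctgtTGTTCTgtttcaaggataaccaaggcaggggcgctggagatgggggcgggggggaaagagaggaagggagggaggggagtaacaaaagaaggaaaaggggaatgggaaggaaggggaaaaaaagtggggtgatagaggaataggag

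Both motifs were found before some Hox genes. The Hoxa9 stretch held 1 match to AGAACA and 1 to GGTCA, those of Hoxd8 and Hoxd10 each held 1 match to GGTCA, and that of Hoxd9 held neither. The table of RefSeq promoters used here held 21 such stretches for 19 of the 33 Hox genes, 9 of them for 8 measured genes, with Hoxc13 not among them. AGAACA was present in 2 of the 9 stretches of measured genes (Hoxa9 and Hoxa11), in 0 of the 12 of unmeasured genes and in 16.1% of all 32851 RefSeq stretches of the same length. GGTCA was present in 3 of the 9, in 7 of the 12 and in 35.2% of all stretches. The full palindromes, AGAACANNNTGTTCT for the androgen receptor and GGTCANNNTGACC for the estrogen receptor, were in 0 of the 21, and in 3 and 21 of all stretches. The median GC content was 54.8% (44.4 to 65.2%) in the stretches of measured Hox genes, 59.8% (44.8 to 80%) in those of unmeasured Hox genes and 52.4% over all stretches. The Hox stretches had a median of 13 CpG dinucleotides both for measured and for unmeasured genes, against 6 over all. A match describes these letters only and is not evidence of binding.

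The posterior group 13, which mouse genetics ties to the prostate, was represented by Hoxc13 alone. Hoxc13, which is known in mice for its role in hair and nail formation, was at 611 on the T+E2 array and 470 on the untreated array. Hoxa13 was at 4.49 with T+E2 and 4.44 in untreated cells. Hoxb13, known for its role in the ventral prostate, was at 4.66 with T+E2 and 4.59 in untreated cells. So 3 of the 4 genes of this group gave no signal above background on either array, the third being Hoxd13, at 4.87 with T+E2 and 5.16 in untreated cells, with its other probe set at 4.40 with T+E2 and 4.38 in untreated cells. Hoxc13 also stood apart within its own cluster, since Hoxc4, Hoxc5, Hoxc6, Hoxc8, Hoxc9 and Hoxc10 lay below the floor. Their intensities ran from 4.58 (Hoxc8) to 11.5 (Hoxc6) on the T+E2 array and from 4.55 (Hoxc8) to 11.4 (Hoxc6) on the untreated array. Hoxc11 and Hoxc12, which lie between Hoxc13 and Hoxc10, are not analysed here.

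A value below the floor rested on a single probe set for 18 of the 24 genes, among them Hoxa13, Hoxb13, Hoxd10 and Hoxd11, and on several for 6. This matters because probe sets of a gene often disagreed about its presence. Of 6625 genes with several probe sets and at least 1 at the floor, 59.3% also had a probe set below it. Among the measured Hox genes the same was true of 3 of the 5 with several probe sets, Hoxa3 (1 of 4 probe sets at the floor), Hoxa9 (1 of 2) and Hoxa10 (1 of 2). A gene below the floor was therefore not detected by its probe sets, which differs from being silent. Of the measured genes, Hoxa7, Hoxa11, Hoxc13 and Hoxd9 also rested on 1 probe set each. Of 48 Hox probe sets in all, 11 reached the floor and 37 did not.

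By the gene values, no measured Hox gene differed by 2-fold between the arrays. Of the 9 genes, 0 were 2-fold or more higher with T+E2 and 0 lower by as much, where over all 10267 measured genes 4.96% were higher and 4.01% lower. With differences centred on the median of all measured genes, the counts over all genes, 509 higher and 412 lower, became 408 and 520, and the Hox counts stayed at 0. With all probe sets of a gene averaged, 1 Hox gene (Hoxa10) was 2-fold lower. With the trend of the difference with gene length removed, 1 Hox gene (Hoxa7) was 2-fold higher. The 9 differences ran from -0.81 to 0.82 (log2, T+E2 minus untreated), with 5 above 0 and 4 below. Their median was 0.03, beside 0.07 for all measured genes, whose interquartile range was -0.32 to 0.45. The Hox median depended on the choice of probe sets. It was 0.30, with 6 genes above 0 and 2 below, when all probe sets of a gene were averaged. Without probe sets of suffix _a_at, _s_at or _x_at it was 0.47, with 6 above and 1 below. Of these suffixes, only _s_at and _x_at mark probes that may match other genes. With the gene length trend removed the Hox median was 0.23. By the gene values, within the interquartile range lay 6 of the measured Hox genes, and 3 lay outside it, Hoxa7, Hoxa9 and Hoxd9.

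**Figure D3:**
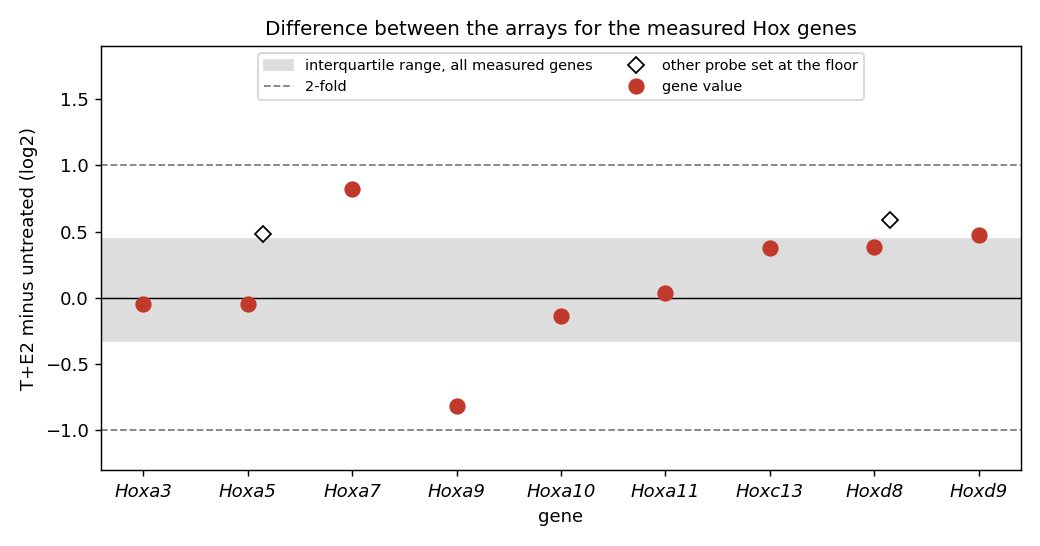
T+E2 minus untreated log2 difference (vertical axis) of the 9 measured Hox genes, with circles for the gene value, diamonds for a further probe set that reached the floor, a grey band for the interquartile range of all measured genes (-0.32 to 0.45) and dashed lines at 2-fold. Hoxa7 (0.82) and Hoxa9 (-0.81) lie farthest from 0 in opposite directions, and the 2 probe sets of Hoxa5 lie on opposite sides of 0.

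Of the measured anterior and middle HoxA genes, Hoxa3 was close to equal on both arrays, Hoxa7 was higher with T+E2 and Hoxa5 depended on the probe set. Hoxa3, which patterns the pharyngeal arches in mice, was at 368 on the T+E2 array and 381 on the untreated array (-0.05). The probe set behind this value has the suffix _s_at, and the other Hoxa3 probe sets were below the floor, between 2.09 and 3.85 (log2). Whether other transcripts add to its signal was not tested. Hoxa5, needed for lung and airway formation in mice, was at 112 with T+E2 and 116 in untreated cells (-0.04). This value comes from the probe set with the higher mean, which has the suffix _x_at. By its other probe set Hoxa5 was at 129 with T+E2 and 92.9 in untreated cells (0.48), above the interquartile range of all measured genes. Hoxa4, which lies between these genes, was below the floor at 5.22 with T+E2 and 5.06 in untreated cells by the higher of its 2 probe sets. Hoxa7, which acts in the thoracic skeleton, was at 71.2 with T+E2 and 40.4 in untreated cells, 1.76-fold higher (0.82), and 8.58% of all measured genes differed by as much or more in that direction. With a floor of 6 the Hoxa7 difference was 0.15, and with the trend of the difference with gene length removed it was 1.03, past 2-fold.

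The posterior HoxA genes did not share one size of difference. Hoxa9, known for its roles in blood progenitors and the lumbar skeleton, was at 873 on the T+E2 array and 1533 on the untreated array, 1.76-fold lower with T+E2 (-0.81), and 7.73% of all measured genes were lower by as much or more. Its second probe set lay below the floor at 26.0 on both arrays, and the mean over both probe sets gave a difference of -0.41. Hoxa10, which in mice acts in the uterus, the lumbar spine and the male accessory glands, was at 6303 with T+E2 and 6931 in untreated cells (-0.14). A second Hoxa10 probe set, below the floor on both arrays, was at 5.54 with T+E2 and 27.6 in untreated cells, so that the mean over both probe sets gave a difference of -1.23, past 2-fold. Hoxa11, which patterns the forearm and is needed in the kidney and uterus, was at 917 with T+E2 and 896 in untreated cells (0.03). Hoxa9, Hoxa10 and Hoxa11 are adjacent Hox genes of 1 cluster, and of the 3 the gene value of Hoxa9 alone lay outside the interquartile range of all genes.

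The HoxC and HoxD genes that were measured were all higher with T+E2 by modest amounts, under each scaling tried. Hoxc13 was 1.30-fold higher (0.38). Hoxd8, a trunk gene, was at 4105 on the T+E2 array and 3148 on the untreated array (0.38), by a probe set of suffix _s_at. Its other probe set was at 1910 with T+E2 and 1271 in untreated cells (0.59). Hoxd9, which acts with Hoxa9 in the lumbosacral region, was 1.39-fold higher (0.47), and 23.1% of all measured genes differed by as much or more in that direction. The paralogs Hoxa9 and Hoxd9 therefore lay on opposite sides of 0. With the gene length trend removed, these genes stood at 0.53 (Hoxc13), 0.59 (Hoxd8) and 0.71 (Hoxd9), and Hoxa9 stood at -0.63.

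Genes below the floor have no usable difference. Their log2 values differed between the arrays by -0.08 to 0.96, the largest being Hoxa2 at an intensity of 15.7 with T+E2 and 8.09 in untreated cells, both under the floor intensity of 32.

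Long non-coding RNAs that lie inside the clusters were looked up by position in the RefSeq table, after the values had been seen, and 5 had a probe set. Hoxa11os, the antisense RNA of Hoxa11, was at 1043 on the T+E2 array and 1903 on the untreated array (-0.87), while Hoxa11 itself was nearly equal on both. No source used here states the strand that each probe set reads, and a second Hoxa11os probe set was at background, at 4.41 with T+E2 and 4.38 in untreated cells. Gm15050, which lies within the span of Hoxa3, was at 143 with T+E2 and 113 in untreated cells (0.34), and Gm38462 differed by -0.09. Hoxd3os1, at 11.5 with T+E2 and 27.6 in untreated cells, and Hoxb5os, at 4.21 with T+E2 and 4.19 in untreated cells, lay below the floor. Of the 3 measured RNAs, 0 differed by 2-fold, where 4.96% of all measured genes were higher by as much and 4.01% lower.

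Genes in and beside the clusters included both measured and unmeasured ones. Of the 15 listed genes of the neighbourhood with a probe set, Hoxa11os among them, 8 (53.3%) were measured, against 56.4% of all genes. Of the 8, 0 were at 2-fold in either direction, where 4.96% of all measured genes were higher and 4.01% lower. Below 0 lay 7 of the 8, against 43.7% of all measured genes. The list median was -0.19, beside 0.07 for all measured genes. Evx1 and Evx2, homeobox genes at the posterior ends of HoxA and HoxD, lay at background (intensity 4.35 with T+E2 and 4.32 in untreated cells for Evx1, and 4.02 with T+E2 and 4.01 in untreated cells for Evx2). Mtx2, beyond the anterior end of HoxD, was at 9.89 (log2) with T+E2 and 10.56 in untreated cells (-0.68), and Skap2, beyond the anterior end of HoxA, at 10.79 with T+E2 and 10.96 in untreated cells (-0.17). Position beside a cluster did not sort the listed neighbours by the floor. Hibadh, beyond Evx1, was at 11.77 with T+E2 and 11.98 in untreated cells (-0.21), and Lnpk, beyond Evx2, was at 10.08 with T+E2 and 10.17 in untreated cells (-0.10). Skap1, beyond the anterior end of HoxB, was below the floor at 2.20 with T+E2 and 3.05 in untreated cells.

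Hox proteins bind DNA together with cofactors of the TALE homeodomain class, the Pbx, Meis and Pknox proteins. Of 8 such genes with a probe set, 7 (87.5%) were measured, against 56.4% of all genes. With T+E2 1 was higher by 2-fold or more, 0 were lower by as much and 6 differed by less, and the list median was 0.39. Over all measured genes 4.96% were higher by 2-fold or more and 4.01% lower. Pknox1 was at 8.26 (log2) with T+E2 and 6.60 in untreated cells (1.67, or 3.18-fold), with its other probe set at the floor on the same side (1.56). It was past 2-fold under every alternative tried. Pknox2 (0.85), Meis2 (0.57), Meis1 (0.39) and Pbx3 (0.37) were under 2-fold, as were Pbx2 (0.0027) and Meis3 (-0.09), and Pbx4 was below the floor. For Meis1 and Meis2, probe sets disagreed. A further Meis1 probe set differed by -2.59 and a further Meis2 probe set by -1.66, both bounds because the T+E2 value was under the floor. The remaining Meis2 probe sets differed by 0.78 and 0.48, on the side of its gene value. Averaging all probe sets of a gene gave a list median of -0.0030.

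Retinoic acid and the Cdx proteins set Hox gene activity in the embryo. Of 21 genes of this list with a probe set, 9 (42.9%) were measured, against 56.4% of all genes. With T+E2 0 were higher by 2-fold or more, 1 was lower by as much and 8 differed by less, and the list median was 0.11. The shares over all measured genes were 4.96% higher and 4.01% lower. Crabp2, which carries retinoic acid to its receptor, was lower with T+E2, at 5.81 (log2) against 7.84 in untreated cells (-2.03). The receptor genes Rarg (0.31), Rxra (0.87) and Rxrb (0.08) were measured, and Rara and Rarb, at most 3.26 on either array, were not. The retinaldehyde dehydrogenase gene Aldh1a1 was at 11.70 with T+E2 and 10.88 in untreated cells (0.82), while Aldh1a2 and Aldh1a3 were at background. Cyp26b1, which breaks retinoic acid down, reached the floor on the T+E2 array alone, at 5.11 against 4.75 in untreated cells. The other measured genes of the list were Rdh10, Dhrs3 and Crabp1. Rdh10 was lower with T+E2, at 8.93 against 9.66 in untreated cells (-0.72), while Dhrs3 (0.71) and Crabp1 (0.10) were higher. All 3 Cdx genes, Cdx1, Cdx2 and Cdx4, lay between 2.13 and 2.19 on both arrays.

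Polycomb proteins keep Hox genes silent outside their domain, and trithorax proteins keep them active within it. Of 27 such genes with a probe set, 25 (92.6%) were measured, against 56.4% of all genes. With T+E2 1 was higher by 2-fold or more, 0 were lower by as much and 24 differed by less, and the list median was 0.02. These counts stand beside 4.96% higher and 4.01% lower over all measured genes. The higher gene was Kmt2a, which encodes the histone methyltransferase MLL1, at 10.69 (log2) with T+E2 and 9.68 in untreated cells (1.01). Its other probe set stood at 0.84. Kmt2a stood under 2-fold with its probe sets averaged (0.92), with differences centred on all genes (0.94) and with the gene length trend removed (0.69). A gene lower by 2-fold appeared under 2 of these alternatives. Dpy30, a subunit of the MLL complexes, was at 12.08 with T+E2 and 13.02 in untreated cells (-0.94), and at -1.02 when centred, and Rbbp4, a histone-binding subunit of PRC2, was at -1.01 with its probe sets averaged. Under both of these alternatives the list count was 0 higher and 1 lower. Ezh2, the catalytic subunit of Polycomb complex PRC2, was at 10.65 on both arrays, and its partners Eed (-0.60) and Suz12 (0.36) were under 2-fold.

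**Figure D4:**
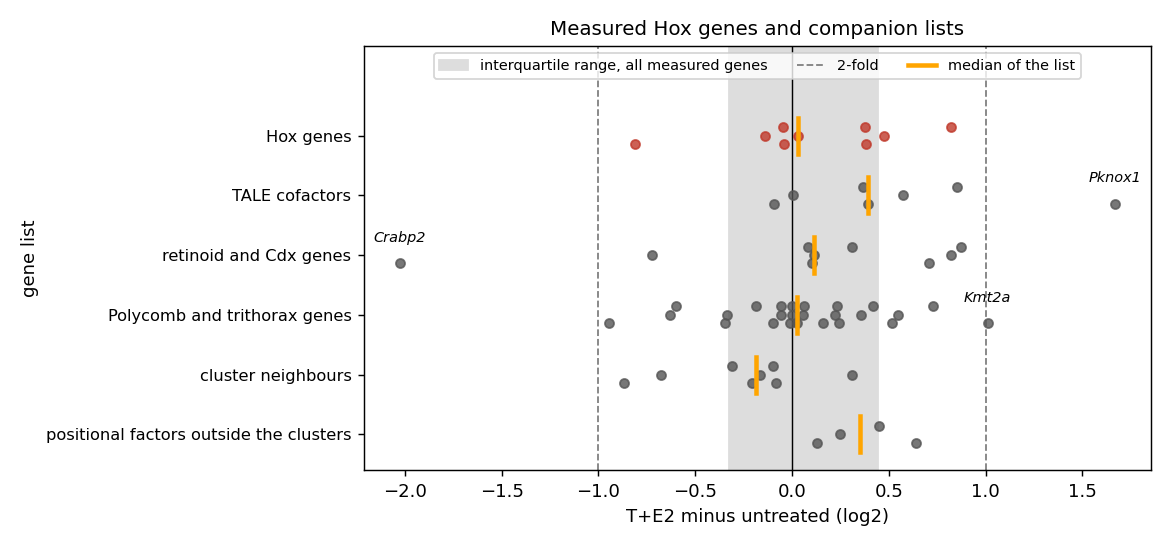
T+E2 minus untreated log2 difference (horizontal axis) of each measured gene in the Hox set and in 5 companion lists (rows), with orange bars for list medians, a grey band for the interquartile range of all measured genes and dashed lines at 2-fold. The Hox genes lie within 2-fold, and the 3 named genes past the dashed lines are Pknox1, Kmt2a and Crabp2.

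Other transcription factors that mark position lie outside the clusters. Of 17 listed factors with a probe set, 4 (23.5%) were measured, against 56.4% of all genes. Isl1 was at 12.15 (log2) with T+E2 and 11.90 in untreated cells (0.25), and Pitx1 was at 7.88 with T+E2 and 7.25 in untreated cells (0.64). Emx2 was at 7.46 with T+E2 and 7.33 in untreated cells (0.13), and Tbx5 was at 6.91 with T+E2 and 6.47 in untreated cells (0.45). Isl1 and Pitx1 are known from the hindlimb and genital region, Emx2 from the urogenital tract and forebrain, and Tbx5 from the forelimb and heart. The head and brain factors Otx1, Otx2, Emx1, Six3, Gbx2, En1, En2 and Lhx2 did not reach the floor on either array. Tbx4, at 2.16 (log2) with T+E2 and 2.15 in untreated cells, was not measured either. Gsx1, Gsx2, Pdx1 and Nkx2-5 were the remaining unmeasured factors of the list. None of the 4 measured factors reached 2-fold, where 4.96% of all measured genes were higher by as much and 4.01% lower.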

How the data were processed

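The authors deposited 1 table of probe set intensity values on a linear scale for the 2 arrays; GCRMA, which corrects for background and normalizes between arrays, is named in the submitters' processing notes, without a version. RNA was labelled as biotinylated cDNA, per the labels' protocols. Here the intensities were turned into log2 values as they stood (Python 3.11.15, pandas 2.3.3, statsmodels 0.14.6). Of 45101 probe sets, 34945 named 1 gene in the platform annotation, and symbols were updated by gene identifier through the RefSeq table of GRCm38.p6. A gene's value is its probe set with the highest mean log2 over both arrays. Values under 5 were set to 5 before a difference was formed. The 2-fold count was tested on simulated data, with changes past 2-fold planted only in genes well above the floor. That setting does not show how the count performs near the floor or under variation between cultures. No p-value was computed, because each group has 1 array, which limits the precision. Named genes are all Hox genes and, from each companion list, up to 6 members at 2-fold or the 2 largest differences; other genes named were chosen after their values were seen. Members and lists were chosen with earlier results of these data known. Alternatives changed the floor, the choice of probe set and the scaling.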

Additional observations from a re-analysis of the deposited data

How the results depend on the processing

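The count of 9 measured Hox genes was the same with a floor of 4 and of 6, 8 with the mean of all probe sets, 7 without probe sets of cross-matching suffixes and 33 with no floor, since every gene then counts as measured. The count at least 2-fold higher was 0 under every alternative except removal of the gene length trend, where it was 1 (Hoxa7), and the count at least 2-fold lower was 0 under every alternative except the mean of all probe sets, where it was 1 (Hoxa10). The Hox median was 0.30 with the mean of all probe sets, 0.47 without probe sets of those suffixes and 0.23 with the length trend removed. Leaving out those suffixes took Hoxa3 (_s_at) and Hoxa10 (_a_at) out of the measured genes. With the mean of all probe sets Hoxa3 also left the measured genes. The cause of the shift with the length trend removed was not tested. Hoxa5 turned to 0.22, 0.48 and 0.18 under the same 3 alternatives, and Hoxa11 turned to -0.04 when centred. The median of the TALE cofactors was -0.0030 and that of the cluster neighbours -0.35 with the mean of all probe sets, and that of the retinoid and Cdx genes was 0.31 with a floor of 4. The alternatives for Pknox1, Kmt2a and Crabp2 were added after the data had been seen. No paired analysis was possible because each group has 1 array, and no array could be left out. With 1 array a group, neither culture variation nor array error can be separated from the hormones.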
